A study of Ovis aries with 91 samples.

Results

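The left and right atrial appendages of control sheep were compared in whole tissue, with each side set against the other within the same animal. The comparison rests on 3 control sheep, S3, S4 and C1, and takes 6 of the 18 whole tissue columns. They were chosen as the left and right appendage columns whose names end in Sham. These 6 columns stand for 12 of the 91 samples of the series, because each column joins the technical replicates of a library.

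The series followed atrial fibrillation, in which the atria beat fast and without a regular rhythm, in sheep in which a tachypacing device had been placed in the right atrium. RNA was sequenced from whole tissue of both appendages, from cardiomyocytes isolated from them, and from the posterior left atrium. Control sheep S3 and S4 are labelled Sham and C1 is labelled Control, although its appendage columns, and the titles of its right whole tissue samples, call it sham. The paced whole tissue samples came from 3 sheep labelled Transition (D24, D27 and D30) and 3 labelled Chronic (D15, D16 and D19). The labels give no breed, age or sex of the animals, and do not say whether a sham sheep carried an inactive device or what was done to C1. The sheep are separate animals. Unless another fit is named, each p-value and standard error (SE) comes from a fit to all control and paced columns of a table. It rests on a spread pooled over these sheep and partly shared across genes, not on the control sheep alone. An SE given with n = 3 sheep is therefore not the SE of the 3 paired differences by themselves.

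The appendages are muscular pouches of the atrial wall. They hold cardiomyocytes, the contracting muscle cells, together with fibroblasts, vessel cells, cells of the inner lining, fat and nerve. The left and right atria arise from different parts of the embryonic heart and keep different gene programmes in the adult. The left appendage is also known as the usual place where clots form in atrial fibrillation, while the right atrium holds the sinus node, the natural pacemaker.

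Values are log2 CPM as deposited, that is, reads scaled to the size of the library, and differences are left minus right on that scale, so that a negative difference means a higher level in the right appendage. A gene was called at a Benjamini-Hochberg adjusted p under 0.05 in limma, over the 12333 genes kept of 13187 listed. Genes carry Ensembl sheep IDs without names, and 0 of these IDs could be paired with a symbol from the RefSeq gene table. For that reason no gene function is given, the labelled tissue could not be checked against its markers, and only the leading genes of each comparison are named. Leading means the largest differences among called genes above the median level, so less abundant genes can differ more. In whole tissue, fewer cells of a type and less RNA per cell cannot be told apart.

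The control whole tissue libraries held 7089908 to 12715615 listed reads on the left and 7343221 to 11484041 on the right. The 10 most abundant genes took 18.3% to 20.5% of the reads on the left and 16.2% to 17.5% on the right. The scaling factors that the authors applied lay between 0.917 and 0.994 on the left and between 1.04 and 1.14 on the right, so both measures separated the sides without overlap. Their part in the differences was not tested beyond the rescaled values given with the counts below.

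On principal components, the side of the heart was the leading axis of variation among the 6 control libraries. On the first principal component, with 34.8% of the variance, the left columns scored 28.36 in S3, 35.00 in S4 and 23.48 in C1. The right columns scored −36.58, −21.32 and −28.94. The second component, with 25.5%, separated the animals, since both columns of C1 scored −37.36 and −31.28, those of S3 24.91 and 25.48, and those of S4 10.41 and 7.83. Across genes, the left minus right differences of any pair of sheep had a Pearson r of 0.446 for S3 and S4, 0.349 for S3 and C1, and 0.536 for S4 and C1. These correlations describe genes, which are not independent replicates. Between libraries, the Pearson r of the log2 values was 0.9484, 0.9614 and 0.9601 for the sides of S3, S4 and C1. It was 0.9528 to 0.9655 for libraries of the same side from different sheep, so the ranges overlapped.

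More genes were higher in the right appendage than in the left. Of the 12333 genes, 607 (4.92%) differed between the sides. The right appendage was higher for 427 (3.46%) and the left for 180 (1.46%). At an unadjusted p under 0.05 the count was 2330. When reads were scaled to library totals alone, which moved the median difference of all genes from 0.03 to −0.13, the calls were 741 right-higher and 75 left-higher. With sample quality weights, an alternative chosen after seeing the data, the counts were 510 and 322. The right-higher calls were the larger number under each scaling and model tried.

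The count was sensitive to the number of animals. It was 315 without S3, 169 without S4 and 278 without C1, and in each case the right-higher genes outnumbered the left-higher ones. A fit that left out the pairing of the sides within a sheep called 190 genes, of which 155 were right-higher and 35 left-higher. Fitting the 6 control columns alone called 604 genes, of which 434 were among the 607.

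All 607 called genes differed in the same direction in 3 of 3 sheep. Over all genes, 20.7% were higher on the left in all 3 sheep and 18.6% were higher on the right. The left columns lay wholly above the right columns for 167 of the 180 left-higher genes, against 9.19% of all genes. The right columns lay wholly above the left for 410 of the 427 right-higher genes, against 9.58% of all genes. These shares come from the values that made the calls and are given as a description.

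Among the called genes, the right-higher differences were larger than the left-higher ones. Right-higher calls lay at lower levels, as given below, where a difference had to be larger to be called. The median size of a right-higher difference was 1.35, or 2.55-fold, with a range of 0.36 to 11.90. The median left-higher difference was 0.68, or 1.60-fold, with a range of 0.33 to 6.64. At least a 2-fold difference was seen in 313 right-higher genes (73.3%) and 54 left-higher genes (30%), and at least a 4-fold difference in 79 and 18. By sheep, right-higher genes had a median of −1.50 in S3, −1.26 in S4 and −1.10 in C1. The median of the left-higher genes was 0.66 in S3, 0.79 in S4 and 0.66 in C1, beside 0.03, 0.03 and −0.01 for all genes.

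**Figure D1:**
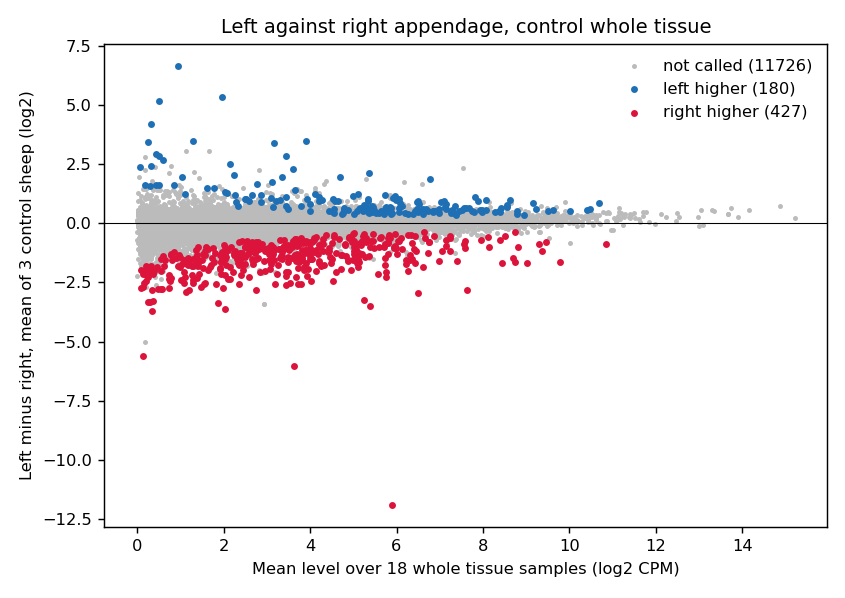
Left minus right difference of each of the 12333 genes (vertical axis, log2, mean of 3 control sheep) against its mean level over the 18 whole tissue samples (horizontal axis, log2 CPM), with 180 left-higher genes in blue, 427 right-higher genes in red and the other genes in grey. Red points reach further from 0 than blue points over most of the range, and the lowest point, at −11.90, is ENSOARG00000019859.

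Left-higher genes were the more abundant ones. Their median level was 5.44 log2 CPM, against 4.19 for all genes and 3.45 for right-higher genes. In the lowest quartile of levels 30 genes were left-higher and 151 right-higher, while in the highest quartile the numbers were 85 and 74. The median difference of all genes also rose with level. It was −0.14, −0.01, 0.05 and 0.11 from the lowest quartile to the highest, so the shift with level was not confined to the called genes. The share of genes called was 5.87%, 4.90%, 3.76% and 5.16% from the lowest quartile to the highest. The median standard error was 0.35 in the lowest quartile and 0.15 in the highest, so a difference of a given size was measured more precisely in abundant genes. Of the 100 most abundant genes, 4 were called left-higher and 1 right-higher, against 1.46% and 3.46% of all genes. These counts are too small to compare the sides. The largest difference among the 100 was 0.89 in size.

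As a share of all listed reads, left-higher genes took 2.58% in the left appendage of S3, 2.57% in S4 and 2.43% in C1. In the right appendage they took 1.74%, 1.85% and 1.82%. Right-higher genes took 3.23%, 2.87% and 2.97% of the reads of the right appendage and 1.12%, 1.02% and 1.31% of those of the left. The genes that distinguish the sides thus held a small share of the RNA on either side.

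The largest difference belonged to ENSOARG00000019859, which was almost restricted to the right appendage. Its right values were 10.42 in S3, 11.44 in S4 and 10.85 in C1, and its left values −1.49, −0.86 and −0.64 in the same order. Behind these values stood 16367, 21502 and 15615 reads on the right and 4 reads in each left library. The difference was −11.90 ± 0.64 (SE, n = 3 sheep) with an adjusted p of 1.56e-08 in limma. Taken from the reads and scaled library sizes, the right level was 4340 times the left in S3 (exact Poisson 95% interval 1690 to 15900), 5640 times in S4 (2200 to 20700) and 3240 times in C1 (1270 to 11900). These intervals cover counting error only.

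The right restriction of this gene was also present in paced sheep and in isolated cells. In paced whole tissue the difference was −9.94 ± 0.45 (SE, n = 6 sheep), from −12.41 to −7.93 by sheep. The left library of transition sheep D24 held 4 reads, while the left values were 0.78 and 2.36 in D27 and D30 and 2.10, 0.33 and 3.72 in chronic sheep D16, D15 and D19, so 5 of the 6 exceeded every control left value. The paced minus control difference of 1.96 ± 0.79 had an adjusted p of 0.497 and was not called. In control cardiomyocytes the difference was −12.05 ± 0.56 (SE, n = 3 sheep), and the left libraries there held 10, 2 and 2 reads in S3, S4 and C1.

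The second leading right-higher gene above the median level, ENSOARG00000014874, was expressed on both sides. Left values were 2.86 in S3, 3.46 in S4 and 3.59 in C1, and right values 7.12, 7.13 and 6.19. Every right value exceeded every left value by more than 2-fold. The difference was −3.51 ± 0.32 (SE, n = 3 sheep), or 11.4-fold, with an adjusted p of 2.16e-05 in limma. It was −1.92 ± 0.23 in paced tissue with an adjusted p of 0.000154, right-higher in 6 of 6 sheep. The change of the difference with pacing, 1.59 ± 0.40, had an adjusted p of 0.216.

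In isolated control cardiomyocytes the side difference of ENSOARG00000014874 was not called. Left values were 1.99 in S3, 3.64 in S4 and 3.24 in C1, and right values 3.72, 3.14 and 3.69, so the sides overlapped and S4 was higher on the left. The difference there was −0.56 ± 0.38 with an adjusted p of 0.556 in limma. In paced cardiomyocytes it was −1.13 with an adjusted p of 0.00637. In the 4 paced sheep with both kinds of library, its level in whole tissue was 2.32 higher on the log2 scale than in cardiomyocytes, although the tables were normalised separately.

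The leading left-higher gene above the median level was ENSOARG00000017490, while left-higher differences over all levels reached 6.64. It measured 6.77 in S3, 6.48 in S4 and 7.07 in C1 on the left, and 3.93, 4.68 and 5.39 on the right. The sides did not overlap, and the right values varied more (SD 0.73) than the left ones (SD 0.29). The difference was 2.11 ± 0.32 (SE, n = 3 sheep), or 4.31-fold, with an adjusted p of 0.00105 in limma. In paced tissue it was 1.51 ± 0.23 with an adjusted p of 0.00133, left-higher in 6 of 6 sheep, and in control cardiomyocytes 1.24 ± 0.26 with an adjusted p of 0.0228. ENSOARG00000017490 was therefore called left-higher in all 3 settings.

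ENSOARG00000015655, the second leading left-higher gene, measured 5.40 in S3, 5.23 in S4 and 5.77 in C1 on the left, against 2.89, 3.59 and 4.09 on the right. The difference was 1.95 ± 0.38 (SE, n = 3 sheep), or 3.85-fold, with an adjusted p of 0.00722 in limma. This call was lost without S3 (1.66, adjusted p = 0.0711) and without S4 (2.10, adjusted p = 0.0533). In paced tissue the difference was 1.02 ± 0.27 with an adjusted p of 0.0579, and transition sheep D27 was higher on the right. In control cardiomyocytes it was 1.53 ± 0.29 with an adjusted p of 0.0138.

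**Figure D2:**
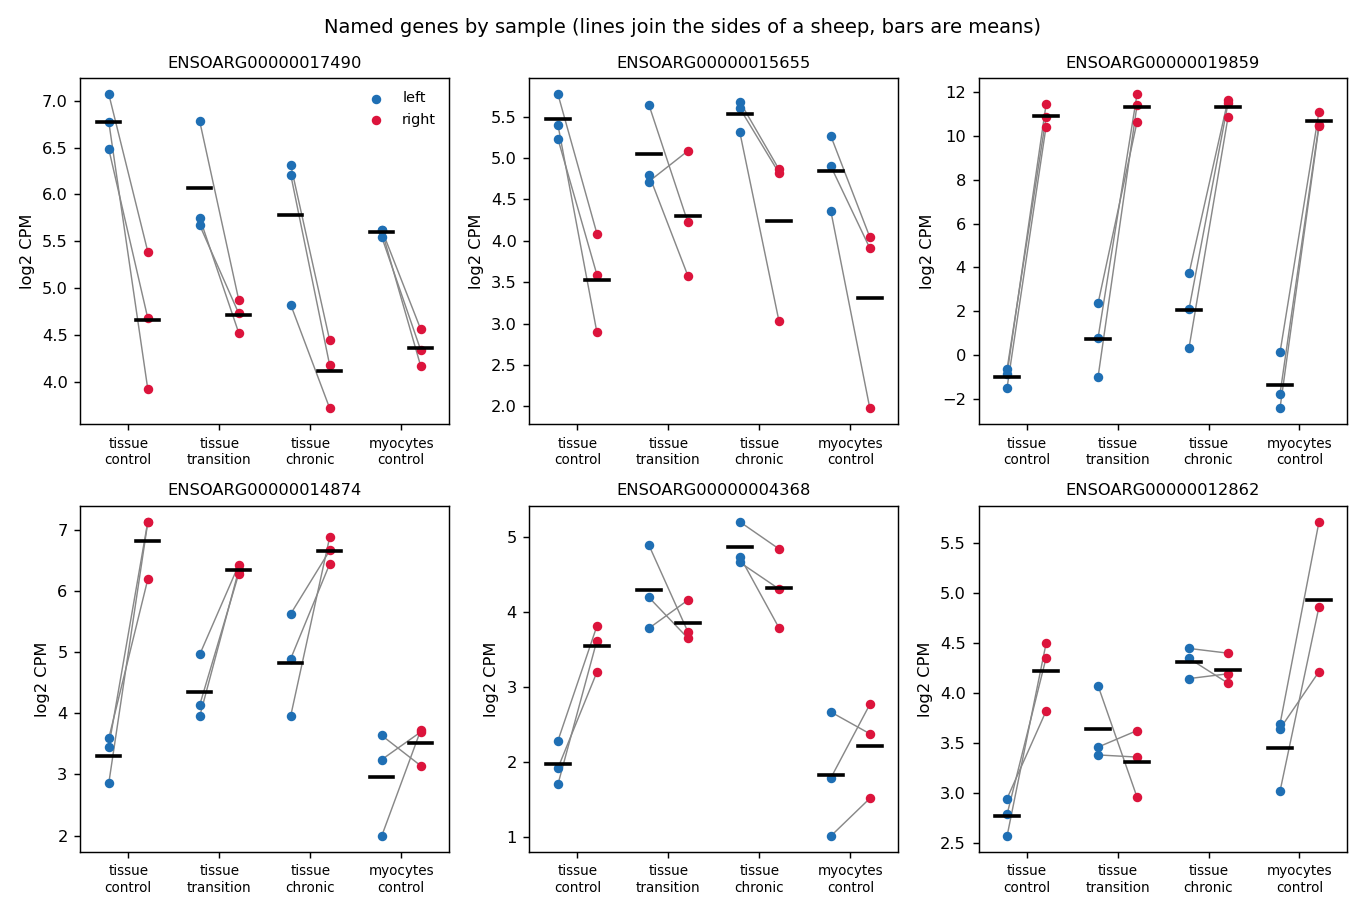
Level of 6 named genes (vertical axes, log2 CPM, with a separate scale for each gene) in whole tissue of control, transition and chronic sheep and in control cardiomyocytes, 3 sheep a group, with left in blue, right in red, a grey line joining the sides of a sheep and black bars at the means. ENSOARG00000019859 is separated by side in every group, while ENSOARG00000004368 and ENSOARG00000012862 are separated in control tissue and overlap in both paced groups.

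Most side differences of control tissue pointed the same way in the 6 paced sheep. These sheep are other animals, but the lists were chosen on the control values, so smaller medians in paced sheep are no test of a change. Of the 180 left-higher genes, 157 were also higher on the left in paced tissue and 46 were called there, against 0.835% of all genes called left-higher. Of the 427 right-higher genes, 392 were higher on the right in paced tissue and 116 were called, against 1.54% of all genes. One gene, ENSOARG00000015333, was called right-higher in controls and left-higher in paced tissue. Named after its values were seen, it had 4, 0 and 0 reads in the left control libraries of S3, S4 and C1, against 8, 10 and 14 on the right. Its mean level of 0.24 lay just above the filter, a mean log2 CPM of 0. It passed only through its paced left columns, with a mean of 2.17. The means were −3.11 on the control left, 0.24 on the control right and 0.00 on the paced right. Its calls are therefore no independent support for a reversal.

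Taken from the other direction, the genes called in paced sheep were chosen without the control differences, although both contrasts share the fitted spread. The 190 genes called right-higher in paced tissue had a median control difference of −1.19, beside −1.01 in the paced sheep themselves. Of them 188 were higher on the right in controls, 171 in all 3 control sheep, and 116 were called right-higher, against 18.6% of all genes right-higher in 3 of 3 sheep and 3.46% called. The 103 genes called left-higher in paced tissue had a median control difference of 0.67, beside 0.78 in the paced sheep. Of these 94 were higher on the left in controls, 83 in all 3 control sheep, and 46 were called left-higher, against 20.7% and 1.46% of all genes. Over all genes, 54.1% were higher on the left in controls and the median difference was 0.03.

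**Figure D3:**
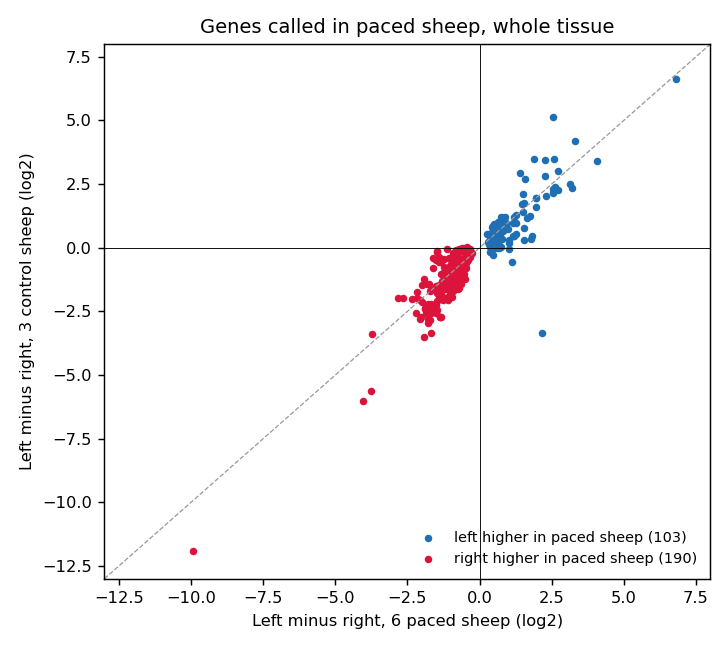
Left minus right difference in 3 control sheep (vertical axis, log2) against that in 6 paced sheep (horizontal axis, log2) for the 103 genes called left-higher (blue) and the 190 called right-higher (red) in paced whole tissue, with the line of equal differences dashed. Most points lie in the quadrants of equal sign, and the blue point far below 0 is ENSOARG00000015333.

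The right-higher genes of control tissue varied from one paced sheep to another. Their median difference was −0.35 in D24, −0.07 in D27 and −0.81 in D30 among transition sheep. Among chronic sheep it was −0.41 in D16, −0.62 in D15 and −0.73 in D19. In D27 the list was close to evenly split, with 46.4% of its genes higher on the left. The left-higher list was more even, with medians of 0.22 to 0.31 over the 6 paced sheep.

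**Figure D4:**
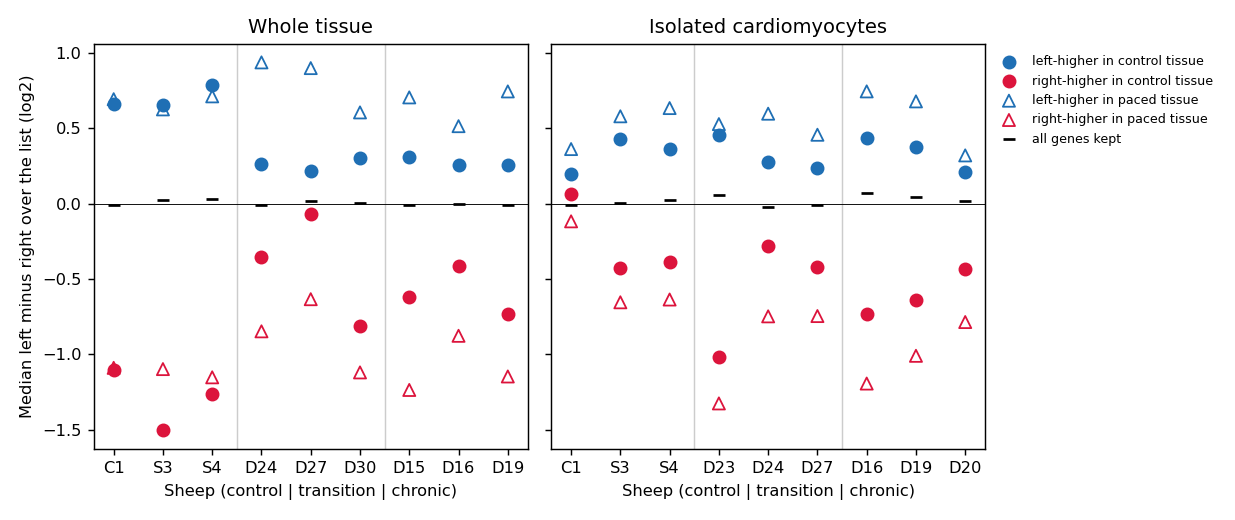
Median left minus right difference (vertical axis, log2) of the genes called in control tissue (filled circles) and in paced tissue (open triangles) for each sheep (horizontal axis), left-higher lists in blue, right-higher lists in red and all genes as black bars, in whole tissue and in isolated cardiomyocytes. The lists chosen on control tissue lie furthest from 0 in the 3 control tissue sheep, which chose them, and their right-higher list lies near 0 in D27 tissue and in C1 cardiomyocytes.

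A few side differences themselves differed between control and paced sheep. The paced minus control difference of left minus right passed the test for 6 genes (0.0486%), and 1041 had an unadjusted p under 0.05. All 6 were right-higher in controls and lay below the median level of all genes. In each of the 6, every paced left value was above every control left value. This separation comes from values that made the calls and is given as a description, without the share over all genes. With transition sheep alone 3 genes were called, and with chronic sheep alone 0, with unadjusted counts of 925 and 815. The calls were fragile, since voom weights gave 0, as did leaving out S4, C1, D15, D16, D19 or D24, while 2 were called without S3, 4 without D27 and 10 without D30.

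None of the 6 genes met the level asked of named genes, so the more abundant 2 were named after their values were seen. ENSOARG00000004368 measured 2.28 in S3, 1.70 in S4 and 1.92 in C1 on the left and 3.81, 3.62 and 3.20 on the right, from 26 to 167 reads. In paced sheep its left values were 4.20, 4.89 and 3.78 in D24, D27 and D30, and 5.20, 4.74 and 4.66 in D16, D15 and D19. The right values were 3.65, 3.74 and 4.16 in the transition sheep and 4.84, 3.79 and 4.31 in the chronic sheep. The sides were thus apart in the controls and overlapped in both paced groups.

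The control difference of ENSOARG00000004368 was −1.58 ± 0.26 (SE, n = 3 sheep; limma adjusted p = 0.00171) and the paced difference 0.50 ± 0.18 (adjusted p = 0.193). Their difference of 2.08 ± 0.31 had an adjusted p of 0.0219, and of 0.0736 to 0.303 without S3, S4, C1, D15, D16, D19 or D24. ENSOARG00000012862 measured 2.95, 2.57 and 2.79 on the left of S3, S4 and C1 and 3.82, 4.50 and 4.35 on the right. Its difference in whole tissue went from −1.45 ± 0.21 (adjusted p = 0.00076) to 0.20 ± 0.15 (adjusted p = 0.583), a change of 1.66 ± 0.26 with an adjusted p of 0.0219. That adjusted p was 0.0602 to 0.32 without S4, C1, D15, D16, D19 or D24. The call on ENSOARG00000012862 was also lost with the sheep as a fixed block (adjusted p = 0.146), with no block (0.104), with voom weights (0.103) and with a pseudocount of 10 (0.0832). That on ENSOARG00000004368 was lost with no block (adjusted p = 0.125), voom weights (0.167) and the pseudocount (0.218). In cardiomyocytes the difference of ENSOARG00000012862 was −1.48 in controls (limma adjusted p = 0.0867) and −0.98 in paced sheep (adjusted p = 0.0217). The gene was thus called right-higher in paced cells, unlike in paced whole tissue. For ENSOARG00000004368 the cardiomyocyte differences were −0.40 (adjusted p = 0.77) and 0.09 (adjusted p = 0.882).

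Cardiomyocytes isolated from the appendages of the same 3 control sheep form separate libraries, in a table normalised on its own. In them 85 genes (0.692%) were left-higher and 66 (0.538%) right-higher, so the excess of right-higher calls seen in whole tissue was not present. Without the pairing of the sides the total was 8, and without S3, S4 or C1 it was 35, 24 or 81. Fitting the control cardiomyocyte columns alone gave 300, and sample quality weights gave 411. No test was made between the tables.

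Most left-higher genes of control tissue, and a smaller share of the right-higher ones, had the same direction in the isolated cells. The cells kept 176 of the 180 left-higher genes and 381 of the 427 right-higher ones, beside 11796 of all 12333 genes. More right-higher genes were thus lost, and these also lay at lower levels in whole tissue, as given above. Of the 176 left-higher genes measured there, 160 (90.9%) were higher on the left, 29 were called left-higher and 0 right-higher, with a median of 0.32. Over all genes measured in both kinds of library, 51.1% were higher on the left in these cells, 0.712% were called left-higher and 0.492% right-higher. Of 381 right-higher genes, 258 (67.7%) were higher on the right, 24 were called right-higher and 2 left-higher, with a median of −0.26. By sheep, right-higher genes had a median of −0.43 in S3 and −0.39 in S4 but 0.06 in C1. All measured genes had a median of 0.00 in these cells. The difference between the lists was not tested.

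In cardiomyocytes of paced sheep (D23, D24 and D27 in transition, D16, D19 and D20 chronic) both lists again pointed mostly in their control tissue direction. There 103 of the 176 left-higher genes were called left-higher and 0 right-higher, against 11.6% of all genes called left-higher. Of the 381 right-higher genes 198 were called right-higher and 5 left-higher, against 11% of all genes called right-higher. The medians were 0.32 and −0.61.

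To ask which of the side differences belong to genes that whole tissue holds in excess of cardiomyocytes, genes were ranked by whole tissue minus cardiomyocyte level in paced sheep D16, D19, D24 and D27. None of these is a control sheep. The 500 highest of 11796 genes are called tissue-enriched here and the 500 lowest cardiomyocyte-enriched. With no gene names, the cell types behind the tissue-enriched genes cannot be stated.

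Tissue-enriched genes leaned to the right appendage in control tissue. Their median left minus right difference was −0.26 in S3, −0.36 in S4 and −0.41 in C1, and −0.29 over the mean of the pairs, against 0.04 for all ranked genes. Among the 500, 103 (20.6%) were called right-higher and 0 left-higher, against 3.23% and 1.49% of all ranked genes. All 3 sheep were higher on the right for 44.6% of them, against 17.8% of all. The median was −0.12 in paced tissue and 0.04 in control cardiomyocytes.

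Cardiomyocyte-enriched genes showed no common lean. Their medians were −0.15 in S3, 0.17 in S4 and 0.22 in C1, so the sheep did not share a sign, and 0.09 over the mean of the pairs. Of the 500, 4 (0.8%) were called left-higher and 15 (3%) right-higher, against 1.49% and 3.23% of all ranked genes. The mean-of-pairs median became −0.03 with lists of 200 genes and −0.06 with reads scaled to library totals.

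**Figure D5:**
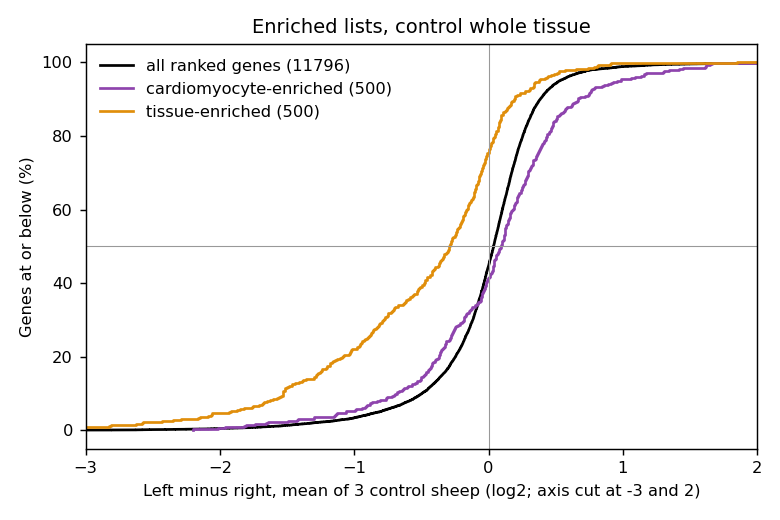
Cumulative share of genes (vertical axis, percent) at or below a left minus right difference (horizontal axis, log2, mean of 3 control sheep, cut at −3 and 2) for 500 tissue-enriched genes, 500 cardiomyocyte-enriched genes and all 11796 ranked genes. The tissue-enriched curve lies to the left, with a median of −0.29 against 0.04 for all ranked genes, and has a long tail of right-higher genes.

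Read from the side lists, 103 of the 381 ranked right-higher genes (27%) were tissue-enriched and 15 (3.94%) cardiomyocyte-enriched, where each list holds 4.24% of all ranked genes. Of the 176 ranked left-higher genes, 0 were tissue-enriched and 4 (2.27%) cardiomyocyte-enriched. The median whole tissue minus cardiomyocyte level was 0.93 for right-higher genes, 0.21 for left-higher genes and 0.38 for all. What proportion of non-muscle cells each appendage held was not measured, and its part in the right-higher excess was not tested.

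The right-higher genes were also described in isolated cells by whether they were tissue-enriched, with no test of the difference between the sets. The 103 tissue-enriched ones had a median control cardiomyocyte difference of 0.12, from −0.34 in S3 to 0.13 in S4 and 0.42 in C1, and 44 (42.7%) were higher on the right. The other 278 had a median of −0.33, with −0.45 in S3, −0.51 in S4 and −0.06 in C1, and 214 (77%) were higher on the right. Of these 22 were called right-higher and 2 left-higher, and of the 103 the counts were 2 and 0, where 0.538% and 0.692% of all cardiomyocyte genes were called. In paced whole tissue both sets were right-higher, with medians of −0.54 and −0.46, and 29 and 78 of their genes were called, against 1.54% of all genes. Tissue-enriched genes were also lower in cardiomyocytes, with a median level of 2.27 log2 CPM against 3.27, which limits what could be called there.

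The posterior left atrium of the same 3 control sheep was set beside both appendages. Its columns are numbered S1, S2 and S3, and the sheep identifiers in the labels give them to S3, S4 and C1 in that order, so every value by sheep rests on those labels. Its values come from a separately normalised table of unknown depth, so each was compared after taking away the median difference of 11753 shared genes in that sheep. Genes called in paced tissue were used. Their side differences come from other animals, although the control sheep entered the same fit and so contributed to its spread, sheep correlation and level filter. For the 98 of 103 left-higher genes that were shared, the posterior left atrium minus left appendage median was −0.13 in S3, −0.10 in S4 and 0.00 in C1. Against the right appendage it was 0.38, 0.64 and 0.59.

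Of the 190 right-higher genes 169 were shared. For these the posterior left atrium lay 0.33, 0.21 and −0.03 from the left appendage and −0.71, −0.88 and −1.02 from the right, in S3, S4 and C1. It was nearer the left appendage for 69.2%, 72.2% and 83.4% of these genes and for 64.3%, 74.5% and 72.4% of the left-higher genes. Over all shared genes the shares were 50.4%, 58% and 57.5%. For most of the shared genes that distinguish the appendages in paced tissue, the posterior left atrium therefore lay nearer the left appendage in each of the 3 sheep.

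Among the named genes, ENSOARG00000017490 measured 6.67 in S3, 6.22 in S4 and 6.78 in C1 in the posterior left atrium, within 0.3 of the left appendage of each sheep. ENSOARG00000014874 measured 4.50, 4.41 and 3.60, nearer to the left than to the right values of S3, S4 and C1. ENSOARG00000015655 was more scattered, at 4.33, 5.64 and 6.60. ENSOARG00000004368 went the other way, at 3.41, 3.68 and 3.62, nearer to the right than to the left values in each of S3, S4 and C1. ENSOARG00000012862, at 3.18, 3.52 and 3.50, lay between the sides in each sheep, and in S4 about midway. No posterior left atrium value was available for ENSOARG00000019859. These levels come from separately normalised tables and were not centred.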

How the data were processed

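The authors deposited log2 values per gene, 1 column per sheep and region. Tools named in the submitters' processing notes are bcl2fastq, cutadapt, RSEM and limma. The role of each, the versions, the build and the annotation were not given in the sources used here. Every appendage value equalled the log2 of whole reads plus 0.5 over a scaled library size, within 0.05 reads, so reads were recovered. Chi-square per degree of freedom between control libraries was 18.4 or more, so no library was a copy of another. Of the genes, 41 have values identical to those of another gene, and 0 of these were called. Overlapping genes and near copies cannot be told apart.

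Genes with a mean log2 CPM below 0 were left out. R 4.3.3 and limma 3.58.1 fitted 6 group means to all 18 columns of each appendage table, with a mean-variance trend and the sheep as a random effect (consensus correlation 0.294 in whole tissue, 0.470 in cardiomyocytes). Left and right samples were paired by the sheep identifier of the labels. Alternatives covered scaling, filter, pseudocount, weights, the sheep block and leaving out each sheep. Genes were named where called, above the median level and in 1 direction in every sheep, taking the largest differences each way. Gene lists and markers fixed as symbols could not be used, as 0 IDs matched. The comparison and all lists were chosen with earlier results of these data known.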

Additional observations from a re-analysis of the deposited data

Results flagged for a closer look

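For 6 genes the left minus right difference itself differed between paced and control whole tissue (limma, adjusted p 0.0174 to 0.0424), in each case toward the left in paced sheep. The change was 2.08 for ENSOARG00000004368 and 1.66 for ENSOARG00000012862 on the log2 scale. For the other 4 it was 2.57, 4.03, 5.52 and 2.05. The largest of these belongs to ENSOARG00000015333, which had 4, 0 and 0 reads in the left control libraries, so the size of its change depends on the offset of the deposited values. That gene also passed the level filter only through its paced left columns. The change of 4.03 belongs to ENSOARG00000010722. Its control left values had a mean of −2.17 and a maximum of −0.86, so the size of that change depends on the offset too. No gene changed in the opposite direction past the threshold in this fit, while the fit with the sheep as a fixed block called 5 toward the left and 3 toward the right.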

How the results depend on the processing

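The replicate numbers are the sheep, so the pairing is real. With no replicate block the calls were 190 in control tissue, 111 in paced tissue, 0 for the paced minus control difference and 8 in control cardiomyocytes, against 607, 293, 6 and 151. The fixed block gave 301 in control cardiomyocytes, and control sheep alone 300. Sample quality weights, chosen after seeing the data, gave 1060 in paced tissue, 11 for the paced minus control difference and 411 in control cardiomyocytes. The paced minus control count was 3 with quantile normalisation, 1 with a pseudocount of 10 and 0 with voom weights.

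Leaving out a sheep gave 169 to 315 calls in control tissue, 104 to 379 in paced tissue (104 without D15, 148 without D19, 144 without D24, 158 without D30), 0 to 10 for the paced minus control difference and 24 to 81 in control cardiomyocytes. With reads scaled to library totals, paced tissue had 63 left-higher and 303 right-higher calls, beside 103 and 190. The tissue-enriched median of −0.29 was −0.56 with 200 genes, −0.18 with lists from the right appendage and −0.44 with library totals (chosen after seeing the data), and −0.37 to −0.26 without a sheep. In all, 43 of these alternative values stayed within the set limits and 34 moved. Of 114 values for named genes 92 kept their call, 22 lost it and 0 reversed. Depth limits the low genes, as the median standard error of 0.35 in the lowest quartile of levels shows.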
